A study of Mus musculus with 30 samples.

Results

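The transcripts described here are 41 genes of DNA replication and S phase, listed by name for their known roles. All 41 were found among the 54532 features of the count files, 1 feature each, and all 41 passed the low-count filter that left 13286 genes for testing. They were measured in sorted cells of 30 subcutaneous tumours of YUMM1.7, a C57BL/6 mouse melanoma line known to carry an activated Braf allele with loss of Cdkn2a, features that all groups share. The tumours came from 5 clones isolated with CaTCH, a barcode-based method for retrieving a chosen clone, and the clones are named 2646TN, 2646R, 14559TN, 14559R and 13TN. Titles of 13TN tumours carry the word Depleted, and the letters TN and R, which the labels do not spell out, are used only as names. From every clone tumours were grown with no drug or under RAFi/MEKi, inhibitors of the RAF and MEK kinases that the labels do not name further, with 3 tumours in each of the 10 groups. Tumours were dissociated, stained for CD45 and a viability dye, and live cells with strong GFP signal were collected. Each clone is 1 isolate, so a difference between clones is a difference between those isolates.

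A cell copies its genome once per cycle. In G1 the origin recognition complex, Cdc6 and Cdt1 load the MCM ring onto origins, and geminin holds Cdt1 back once S phase has begun. Cdc45 and the GINS proteins turn the loaded ring into a moving helicase, behind which primase, the polymerases, the PCNA clamp and its RFC loader copy the strands while ribonucleotide reductase and thymidylate synthase supply deoxynucleotides. Many of these genes are known targets of the E2F factors, which the RB protein restrains until cyclin D and cyclin E kinases act, and RAF-MEK-ERK signalling is a well-known inducer of cyclin D in melanoma.

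Libraries were 3′ end libraries with 3022801 to 5278453 counts each (median 4042893), and levels are TMM-scaled CPM. Over the 30 libraries the listed genes held between 352 counts (Orc1) and 41590 counts (Lig1), so Orc1 is the least precisely measured. The pigment genes Dct, Tyr and Tyrp1 had 0 counts in all 30 libraries and Mlana had counts in 1. Pmel, also a pigment gene, had counts in 27 at up to 1.81 CPM, and Sox10 in 20 at up to 51.8 CPM. Mitf was present in all 30 at 12.01 to 81.3 CPM. The labelled line was thus not identified by its pigment transcripts. Ptprc, which encodes CD45, reached at most 6.80 CPM, and Cd79a, Ms4a1, Ly6g and Krt1 had 0 counts throughout. Other markers of cells outside the line were present. The macrophage markers C1qa and Lyz2, the erythroid marker Hbb-bs and the keratinocyte marker Krt10 had counts in all 30 libraries. They reached 62.0, 58.0, 405 and 17.5 CPM. The neutrophil marker S100a8 had counts in 28 at up to 9.98 CPM. In these bulk libraries fewer cells in S phase and less transcript per cell cannot be told apart. A gene is called changed in a comparison at a Benjamini-Hochberg adjusted p under 0.05 from edgeR's quasi-likelihood test over all 13286 genes, and values after ± are SDs for CPM and standard errors for log2 fold changes.

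Because the members moved together in several clones, their promoters were set beside each other. RefSeq promoter windows of GRCm38.p6, 250 bases before to 50 after each transcript start, were found for 34 of the 41 genes. The 250 bases before the start are shown for Mcm6 (chr1:128359706-128359955, minus strand), for Mcm5 (chr8:75109259-75109508, plus strand) and for Pola1 (chrX:93632156-93632405, minus strand), which hold the letters of an E2F motif, and for Chaf1b (chr16:93883651-93883900, plus strand), which holds none. None of these stretches overlaps an annotated exon. They read 5′ to 3′ on the strand of the gene, and capitals mark a match to TTTGGCGC, TTTCCCGC, TTTCGCGC or TTTGCCGC on either strand.
Mcm6: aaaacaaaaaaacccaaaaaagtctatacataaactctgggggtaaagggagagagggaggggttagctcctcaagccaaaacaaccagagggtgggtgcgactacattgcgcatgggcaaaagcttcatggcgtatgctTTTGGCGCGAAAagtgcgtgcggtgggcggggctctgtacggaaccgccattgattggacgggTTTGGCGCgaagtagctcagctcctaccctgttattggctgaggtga
Mcm5: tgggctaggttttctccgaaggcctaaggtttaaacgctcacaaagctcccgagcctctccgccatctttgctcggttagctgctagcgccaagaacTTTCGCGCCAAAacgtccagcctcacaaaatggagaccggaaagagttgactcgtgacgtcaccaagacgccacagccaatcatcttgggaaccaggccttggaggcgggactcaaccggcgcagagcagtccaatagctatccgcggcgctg
Pola1: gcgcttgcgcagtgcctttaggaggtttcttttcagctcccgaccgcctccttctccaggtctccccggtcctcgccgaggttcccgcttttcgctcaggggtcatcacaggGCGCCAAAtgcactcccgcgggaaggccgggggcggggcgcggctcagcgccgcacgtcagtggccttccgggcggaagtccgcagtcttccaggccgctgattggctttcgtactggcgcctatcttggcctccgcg
Chaf1b: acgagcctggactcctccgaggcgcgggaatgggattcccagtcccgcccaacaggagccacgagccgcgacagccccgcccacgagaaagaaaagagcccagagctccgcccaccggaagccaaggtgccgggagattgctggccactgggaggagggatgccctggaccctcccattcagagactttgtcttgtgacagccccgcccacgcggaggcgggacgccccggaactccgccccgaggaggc

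E2F letters stood in the 300-base windows of 13 of 34 members (38.2%), beside 4.9% of the 9468 tested genes with a window and 2.6% of all 27025 genes in the table. The 13 genes were Orc1, Cdc6 and Cdt1 of origin licensing, Mcm3, Mcm5, Mcm6 and Mcm7 of the helicase ring, Rfc3, Pola1, Pold1 and Lig1 at the fork, E2f2 and Uhrf1. CCAAT, the core letters of the NF-Y motif, stood on either strand in 20 of 34 (58.8%) against 43.1% of tested genes. TTTGAA or TTCGAA, letters of the cell cycle homology region known from late cell cycle promoters, stood in 6 of 34 (17.6%) against 16.1%. Among members a match of one motif overlapped a match of another only in Mcm7 (E2F and CCAAT), and a gene with more than 1 window counts once. In Mcm6 the E2F letters stand 3 times, an overlapping pair around base -110 and 1 copy at -47 from the start. A match describes letters in a window and is not a bound site. Of 40 member windows, 30 had the bases just after their start in a transcript of the gene. The 250 bases before the start lay wholly in annotated exons in the E2f1 window. The same held for 1 window each of Mcm7, Lig1 and Fen1. Exons of any gene were counted. That Lig1 stretch ends at base 13277174, before the annotated start of Lig1 at 13277283. The E2f1 stretch and that of Mcm7 lie within the annotated genes, so not every window is a stretch upstream of its gene.

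**Figure D1:**
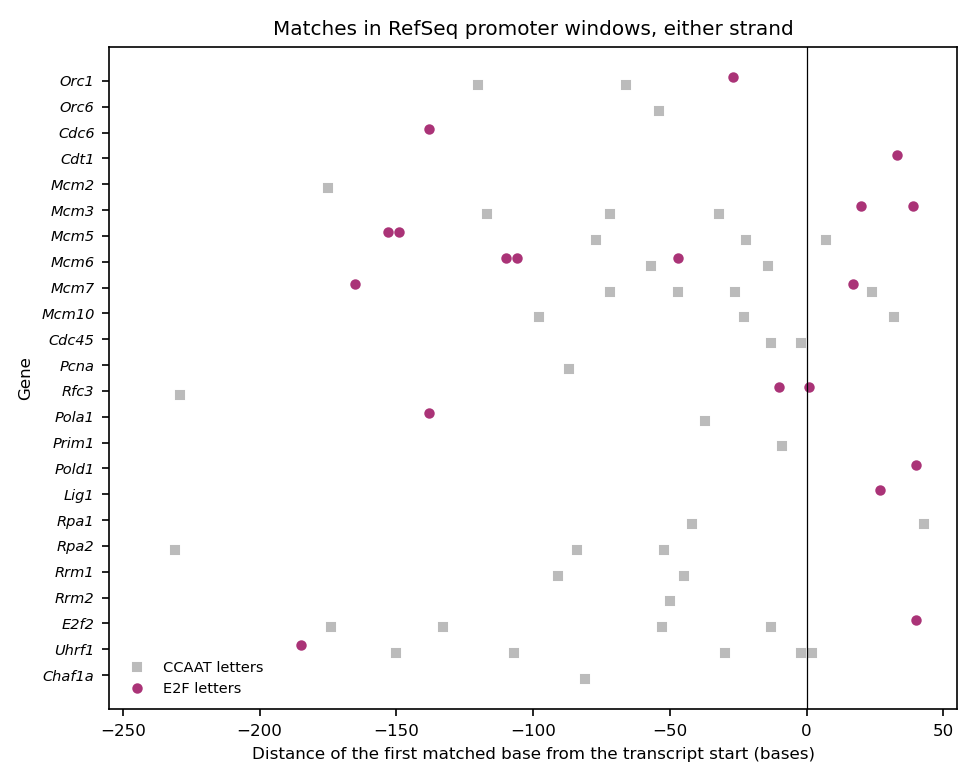
Distance in bases of each E2F match (circles) and CCAAT match (squares) from the transcript start in the RefSeq windows, 1 row per listed gene with a match. E2F letters occur from base -185 of another Uhrf1 window to base 40 of the E2f2 and Pold1 windows, and Mcm6 carries 3 of them.

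RAFi/MEKi was followed by a broad fall of the replication genes in the clones 14559TN and 13TN, a partial rise in 2646R, and no call in 2646TN or 14559R. The summed level of the 41 genes was 1476, 1691 and 1934 CPM in untreated and 729, 626 and 637 CPM in treated 14559TN tumours, and 2365, 1908 and 2048 against 526, 620 and 605 CPM in 13TN. Treated and untreated tumours lay far apart in both clones. In 2646R the sum was 2442, 2665 and 2433 CPM untreated and 3394, 4098 and 3763 CPM treated, with every treated tumour higher. In 2646TN it was 2135, 2021 and 2554 CPM untreated and 2284, 2526 and 3726 CPM treated, where treated replicate 3 alone stood above all untreated tumours. In 14559R it was 2433, 1693 and 2427 CPM untreated and 1511, 1609 and 2067 CPM treated, and the groups overlapped through untreated replicate 2, the lowest untreated tumour.

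edgeR called 38 of the 41 genes lower and 0 higher in 14559TN, where 16.0% of all tested genes were called lower and 12.4% higher. In 13TN 39 were lower and 0 higher, beside 17.4% and 13.6% of all genes. The median log2 fold change of the 41 was -1.72 in 14559TN and -2.19 in 13TN, against -0.0004 and -0.0025 over all tested genes. In 2646R 17 rose and 0 fell (background 9.70% and 10.2%), with a median of 0.59 against 0.01. That count was 11 without 2646R untreated replicate 1. This library had the most counts of all 30 (5278453) and the fewest genes detected, 14669 against 15632 to 17234 in the other libraries, and the part of this in the 2646R rises was not tested. Treated tumours lay wholly below untreated ones for 39 members in 14559TN and for 41 in 13TN, beside 24.5% and 24.1% of all genes, and wholly above for 1 (E2f1) and 0, beside 22.9% and 21.8%. In 2646R 23 lay wholly above (background 17.1%) and 1, Dut, wholly below (background 17.3%). In 2646TN the counts were 8 above (10.1%) and 0 below (10.2%), and in 14559R 0 above (7.41%) and 5 below (6.97%). In 2646TN none of 41 was called in either direction (background 1.69% higher, 2.24% lower) at a median of 0.27, 8 passed an unadjusted p under 0.05 (background 16.2%), DESeq2 called 0, and 1 was called higher without 2646TN untreated replicate 3. In 14559R edgeR also called none (background 0.143% higher, 0.0527% lower) at a median of -0.40, 9 passed an unadjusted p under 0.05 (background 10.6%), and DESeq2 called 1 lower.

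**Figure D2:**
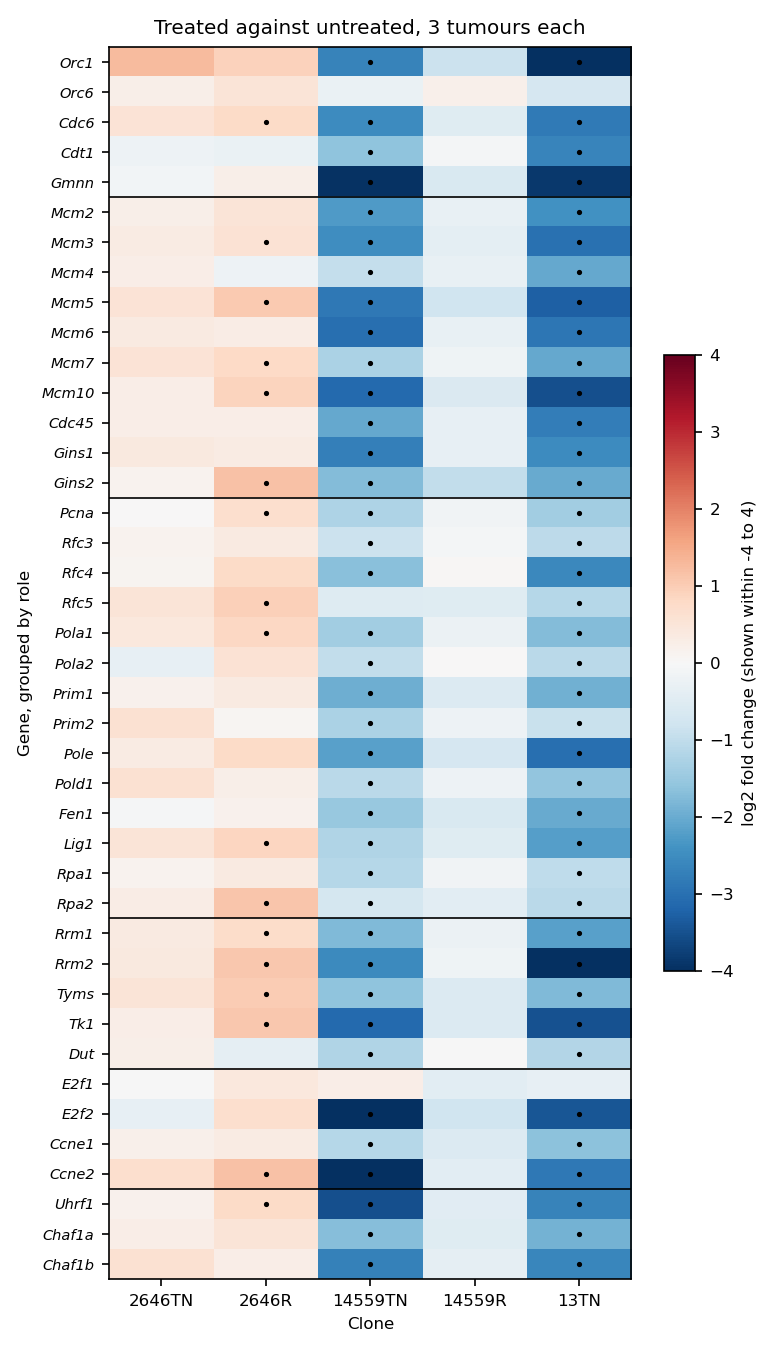
Log2 fold change of treated against untreated tumours for each of the 41 genes (rows, grouped by role) in the 5 clones (columns, 3 tumours per group), with colours limited to -4 to 4 and dots for edgeR adjusted p under 0.05. The 14559TN and 13TN columns hold 38 and 39 dotted falls, 2646R holds 17 dotted rises, and 2646TN and 14559R hold no dot.

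**Figure D3:**
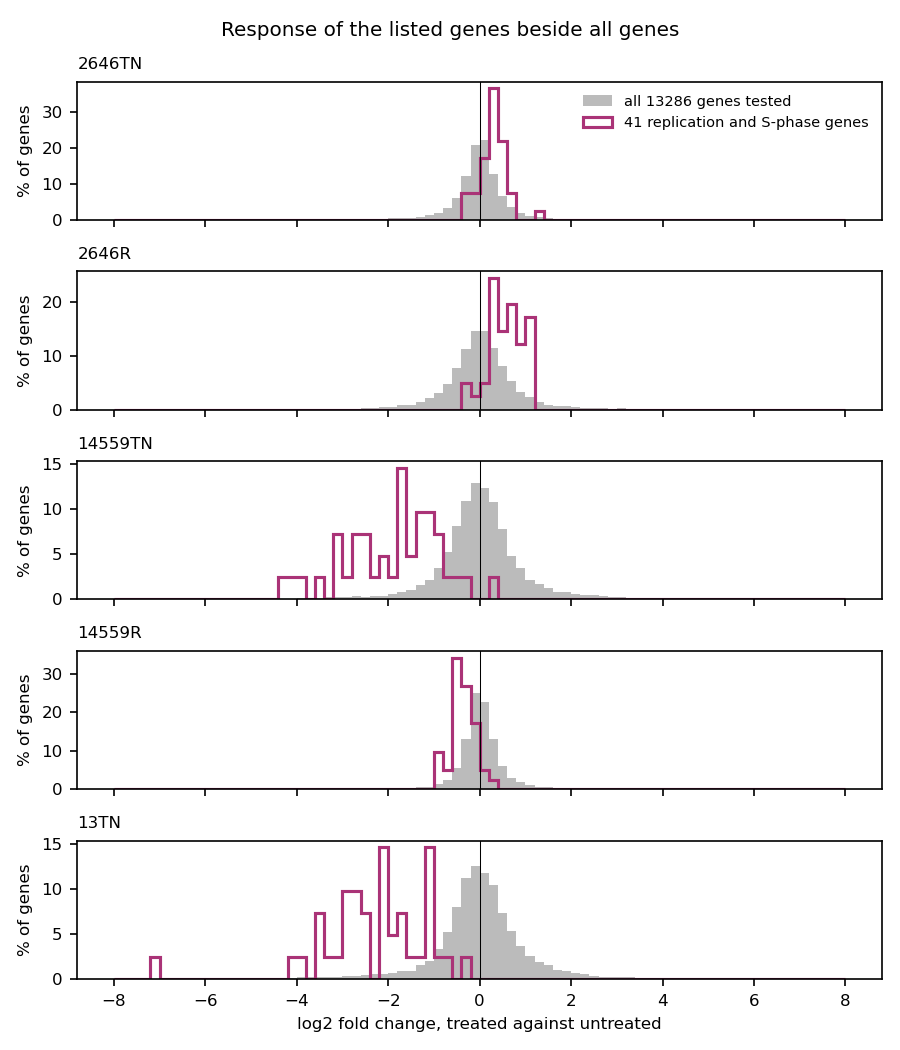
Distribution of log2 fold changes (percent of genes per bin) of the 41 genes (outline) and of all 13286 tested genes (grey) in each clone, with values beyond -8 or 8 placed at the edge. The outline sits left of the grey in 14559TN and 13TN (medians -1.72 and -2.19) and to its right in 2646R (median 0.59).

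By role, the fork genes had the median closest to 0 in both falling clones. In 14559TN the median log2 fold change was -2.53 for origin licensing, -2.37 for the MCM ring and its activators, -1.22 for fork, polymerase and clamp genes, -1.78 for nucleotide supply, -2.67 for S-phase entry and -2.70 for replicated chromatin. The same order of roles gave -2.82, -2.65, -1.49, -2.19, -2.25 and -2.61 in 13TN. Licensing genes were called lower in 4 of 5 in each of the 2 clones, MCM genes in 10 of 10 in each, fork genes in 13 of 14 and 14 of 14, nucleotide genes in 5 of 5 in each, entry genes in 3 of 4 in each and chromatin genes in 3 of 3 in each. In 2646R the rises counted 1 of 5, 5 of 10, 5 of 14, 4 of 5, 1 of 4 and 1 of 3 in that order. No test of the difference between roles was made, and the 13TN medians stay the same with Orc1 at the bound given below.

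Some markers listed for other cells were also called with treatment. Over all tested genes the shares called higher were 1.69%, 9.70%, 12.4%, 0.143% and 13.6% in 2646TN, 2646R, 14559TN, 14559R and 13TN. The shares called lower were 2.24%, 10.2%, 16.0%, 0.0527% and 17.4% in the same order. In 2646TN 7 of 10 tested macrophage markers fell, and their sum over 13 genes was 168 to 266 CPM untreated and 28.6 to 75.0 CPM treated. In 2646R 2 of 10 rose, with sums of 32.4 to 67.5 CPM untreated and 107 to 130.2 CPM treated. The macrophage sum was 21.3 to 83.2 CPM untreated and 70.0 to 133 CPM treated in 14559TN, where 1 of 10 rose, and 42.2 to 70.4 CPM untreated and 29.0 to 79.6 CPM treated in 13TN, where none was called. In 14559R it was 22.0 to 50.6 CPM untreated and 18.9 to 40.4 CPM treated with none called. Among the 7 fibroblast markers the collagen genes Col1a2, Col3a1 and Col1a1 had medians of 4674, 2523 and 790 CPM over all libraries. Those of Pdgfra, Dcn, Lum and Thy1 were 225, 157, 4.41 and 1.68 CPM. Fibroblast markers were called higher in 1, 3, 3, 0 and 4 of 7 in 2646TN, 2646R, 14559TN, 14559R and 13TN. Their sum over 7 genes was 4499.6 to 6699 CPM untreated and 5442 to 12609.7 CPM treated in 2646TN, 5907 to 7198 CPM untreated and 14371 to 16113 CPM treated in 2646R, 8674 to 9515 CPM untreated and 9917 to 15962 CPM treated in 14559TN, 10476 to 13700.4 CPM untreated and 13041 to 22027 CPM treated in 14559R and 3762 to 4566 CPM untreated and 8069 to 9160.3 CPM treated in 13TN. Of the 6 pericyte and smooth muscle markers, Cspg4 and Acta2, smooth muscle actin, had medians of 87.0 and 22.3 CPM over all libraries. Rgs5 and Tagln had medians of 2.62 and 0.263 CPM, and Myh11 and Cnn1 reached at most 1.14 and 1.26 CPM. All 6 markers were summed, and 4 were tested. Their sum was 43.1 to 62.3 CPM untreated and 242 to 720.0 CPM treated in 2646TN, with 1 higher, and 312 to 351 against 749.9 to 1014 CPM in 2646R, with 1 higher and 1 lower. It was 206 to 216 against 167 to 259.5 CPM in 14559TN (2 higher, 1 lower), 109 to 117 against 128 to 150.4 CPM in 14559R (none called) and 162 to 181 against 49.9 to 116 CPM in 13TN (1 higher, 1 lower). These sums did not overlap in 2646TN, 2646R and 14559R, all higher with treatment, or in 13TN, where they were lower. In the remaining lists Krt1, Ly6g, Cd79a and Ms4a1 had 0 counts throughout, and Csf3r and Krt5 had counts in 1 library, so these could not be called. Lymphocyte markers other than Ptprc reached at most 1.26 CPM, and keratinocyte markers other than Krt10 at most 0.847 CPM. Retnlg, Tek and Cldn5 had counts in 2, 3 and 9 libraries. At such low levels the absence of a call says little. No erythroid, endothelial, neutrophil, lymphocyte or keratinocyte marker was called in any of the 5 responses. Without such a call, the sums of untreated and treated tumours did not overlap for erythroid markers in 14559TN (61.2 to 115 and 25.9 to 48.8 CPM), for neutrophil markers in 2646TN (4.36 to 10.6 and 0.974 to 1.26 CPM) and for endothelial markers in 2646TN (46.5 to 53.7 and 23.7 to 43.9 CPM). The cells that made these transcripts were not identified, and the part of these markers in the replication results was not tested.

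The licensing genes load the helicase ring in G1. Orc1, the largest subunit of the origin recognition complex, stood at 3.55, 2.46 and 1.01 CPM untreated and 0.568, 0.418 and 0 CPM treated in 14559TN, and at 6.09, 3.22 and 4.00 CPM untreated and 0, 0 and 0 CPM treated in 13TN. Its groups did not overlap in either clone. The log2 fold change was -2.68 ± 0.89 (edgeR adjusted p = 0.0224) in 14559TN. In 13TN the treated group held 0 Orc1 counts against 51 untreated, at least 19.1-fold lower at a floor of 3 counts over the group, and the edgeR adjusted p was 4.29e-05. Its levels were 1.26, 1.25 and 2.47 CPM untreated and 3.39, 4.87 and 4.04 CPM treated in 2646TN, and 0.196, 6.16 and 5.46 CPM untreated and 5.21, 8.67 and 8.10 CPM treated in 2646R. Orc1 in 14559R read 3.99, 3.24 and 3.42 CPM untreated and 1.13, 1.95 and 2.78 CPM treated. Orc1 groups overlapped in 2646R, lay wholly higher with treatment in 2646TN and lay wholly lower with treatment in 14559R, with none of the 3 called (log2 fold changes 1.26, 0.92 and -0.86). The Orc1 call in 14559TN was lost without treated replicate 2 (edgeR adjusted p = 0.0544), treated replicate 3 (edgeR adjusted p = 0.0985) or untreated replicate 1 (edgeR adjusted p = 0.117), and 2646R untreated replicate 1 stood far below the other 2 untreated tumours.

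Cdc6, which brings the MCM ring to the origin, stood at 9.64, 7.99 and 9.08 CPM untreated and 1.14, 1.67 and 1.71 CPM treated in 14559TN, and at 18.3, 17.1 and 16.3 CPM untreated and 2.71, 2.72 and 1.76 CPM treated in 13TN. Cdc6 groups were separate in both clones, and the transcript fell by 2.53 ± 0.36 and 2.82 ± 0.31 on the log2 scale (edgeR adjusted p = 2.01e-06 and 2.15e-08). In 2646TN Cdc6 measured 13.9, 9.66 and 10.3 CPM untreated and 16.1, 16.9 and 16.9 CPM treated, and in 2646R 10.02, 16.6 and 10.7 CPM untreated and 21.7, 17.8 and 24.3 CPM treated. The 14559R tumours gave 11.2, 7.63 and 18.6 CPM untreated and 9.52, 8.30 and 8.84 CPM treated for Cdc6. Cdc6 groups overlapped in 14559R and lay wholly higher with treatment in 2646TN and 2646R, and 2646R rose by 0.78 ± 0.26 on the log2 scale (edgeR adjusted p = 0.0315). The Cdc6 call in 2646R was lost without treated replicate 1 or 3 or untreated replicate 1 or 3, and in fits without the low-count filter or with only the groups compared (edgeR adjusted p from 0.0567 to 0.121).

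Cdt1, the other loading factor, stood at 42.6, 38.7 and 40.8 CPM untreated and 14.5, 13.4 and 11.996 CPM treated in 14559TN, and at 78.9, 51.8 and 72.0 CPM untreated and 9.02, 13.4 and 10.1 CPM treated in 13TN. The log2 fold changes of Cdt1 were -1.61 ± 0.20 in 14559TN and -2.64 ± 0.20 in 13TN (edgeR adjusted p = 1.61e-07 and 4.59e-12), with no overlap between treated and untreated tumours. Cdt1 in 2646TN was at 58.7, 49.2 and 62.9 CPM untreated and 42.1, 50.6 and 55.8 CPM treated, and in 2646R at 89.2, 98.2 and 105 CPM untreated and 73.8, 94.6 and 72.9 CPM treated. For 14559R the Cdt1 values were 66.6, 48.3 and 66.5 CPM untreated and 48.8, 69.8 and 53.0 CPM treated. Cdt1 groups overlapped in 2646TN, 2646R and 14559R, with none of the 3 called (log2 fold changes -0.20, -0.28 and -0.08). Gmnn, the Cdt1 inhibitor geminin, which accumulates in S and G2, stood at 9.39, 11.4 and 12.6 CPM untreated and 0.852, 0.418 and 0.857 CPM treated in 14559TN, and at 14.6, 17.1 and 16.9 CPM untreated and 0.902, 1.13 and 1.26 CPM treated in 13TN. In both clones the 3 treated tumours were the low ones for Gmnn, at log2 fold changes of -3.97 ± 0.47 and -3.85 ± 0.41 (edgeR adjusted p = 8.38e-08 and 9.76e-09). Its levels were 13.4, 12.8 and 11.9 CPM untreated and 10.2, 16.2 and 9.34 CPM treated in 2646TN, and 26.1, 10.7 and 13.9 CPM untreated and 17.6, 21.6 and 21.5 CPM treated in 2646R. Gmnn was at 17.2, 12.9 and 20.8 CPM untreated and 11.6, 5.86 and 16.2 CPM treated in 14559R. Gmnn groups overlapped in 2646TN, 2646R and 14559R, with none of the 3 called (log2 fold changes -0.10, 0.24 and -0.60).

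Orc6, the smallest origin recognition subunit, was the licensing gene without a call in any of the 5 responses. It stood at 8.63, 13.5 and 21.7 CPM untreated and 11.4, 13.8 and 11.4 CPM treated in 14559TN and at 17.3, 14.1 and 18.8 CPM untreated and 10.6, 8.85 and 12.3 CPM treated in 13TN, with log2 fold changes of -0.26 ± 0.30 and -0.66 ± 0.30 (edgeR adjusted p = 0.566 and 0.0977). The 14559TN groups overlapped, while the 13TN treated tumours all lay below the untreated ones.

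The MCM ring and the genes that activate it fell together in 14559TN and 13TN, with all 10 called in both. Mcm6, a subunit of the ring, stood at 66.2, 58.7 and 83.7 CPM untreated and 8.23, 10.7 and 6.28 CPM treated in 14559TN, and at 81.3, 85.8 and 92.9 CPM untreated and 9.47, 12.02 and 13.3 CPM treated in 13TN. Every treated Mcm6 value lay below every untreated one in both, with log2 fold changes of -3.03 ± 0.25 and -2.90 ± 0.24 (edgeR adjusted p = 1.26e-10 and 4.1e-11). In 2646TN Mcm6 measured 73.3, 73.6 and 69.9 CPM untreated and 77.1, 113 and 90.4 CPM treated, and in 2646R 134, 87.6 and 96.7 CPM untreated and 119.6, 136 and 139.7 CPM treated. Mcm6 in 14559R read 89.3, 52.7 and 89.4 CPM untreated and 54.2, 48.4 and 85.6 CPM treated. Mcm6 groups overlapped in 2646R and 14559R and lay wholly higher with treatment in 2646TN, with none of the 3 called (log2 fold changes 0.37, 0.31 and -0.30). Mcm10, which joins the fork as the helicase starts, stood at 10.9, 13.8 and 9.33 CPM untreated and 1.42, 1.04 and 1.43 CPM treated in 14559TN, and at 24.8, 18.4 and 16.9 CPM untreated and 0.902, 2.27 and 2.01 CPM treated in 13TN. Mcm10 groups were separate in both clones, and the transcript fell by 3.12 ± 0.36 and 3.52 ± 0.32 on the log2 scale (edgeR adjusted p = 5.59e-08 and 3.14e-10). Mcm10 in 2646TN was at 16.4, 22.8 and 20.5 CPM untreated and 15.5, 24.995 and 30.3 CPM treated, and in 2646R at 19.8, 21.1 and 16.9 CPM untreated and 35.8, 39.1 and 33.7 CPM treated. The 14559R tumours gave 16.2, 12.3 and 15.9 CPM untreated and 7.71, 9.52 and 12.6 CPM treated for Mcm10. Mcm10 groups overlapped in 2646TN and 14559R and lay wholly higher with treatment in 2646R, and 2646R rose by 0.91 ± 0.24 on the log2 scale (edgeR adjusted p = 0.00666).

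Cdc45, a subunit of the active helicase, stood at 10.4, 7.38 and 10.6 CPM untreated and 2.84, 1.88 and 2.29 CPM treated in 14559TN, and at 12.2, 19.1 and 17.5 CPM untreated and 1.80, 3.18 and 2.01 CPM treated in 13TN. The log2 fold changes of Cdc45 were -2.03 ± 0.35 in 14559TN and -2.78 ± 0.33 in 13TN (edgeR adjusted p = 3.27e-05 and 5.91e-08), with no overlap between treated and untreated tumours. Its levels were 14.4, 14.6 and 14.6 CPM untreated and 16.1, 21.7 and 15.1 CPM treated in 2646TN, and 15.1, 35.0 and 24.0 CPM untreated and 24.7, 27.4 and 35.9 CPM treated in 2646R. For 14559R the Cdc45 values were 20.7, 16.9 and 21.3 CPM untreated and 13.4, 13.9 and 19.2 CPM treated. Cdc45 groups overlapped in 2646R and 14559R and lay wholly higher with treatment in 2646TN, with none of the 3 called (log2 fold changes 0.27, 0.25 and -0.34). The remaining 7 genes of this role, Mcm2, Mcm3, Mcm4, Mcm5, Mcm7, Gins1 and Gins2, ranged from -2.85 to -0.97 on the log2 scale in 14559TN and from -3.27 to -2.005 in 13TN. Mcm4 had the smallest fall of the role in 14559TN, and its call there was lost without treated replicate 1 (edgeR adjusted p = 0.0549) or untreated replicate 3 (edgeR adjusted p = 0.0642). In 2646R the called MCM genes were Mcm3, Mcm5, Mcm7, Mcm10 and Gins2. Gins2, a GINS subunit, stood at 10.998, 15.6 and 24.0 CPM untreated and 29.95, 32.6 and 49.6 CPM treated in 2646R, with no overlap and a log2 fold change of 1.16 ± 0.27 (edgeR adjusted p = 0.00193). Mcm3 lost its call in 2646R without any of 5 of the 6 libraries compared (edgeR adjusted p from 0.0555 to 0.116).

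**Figure D4:**
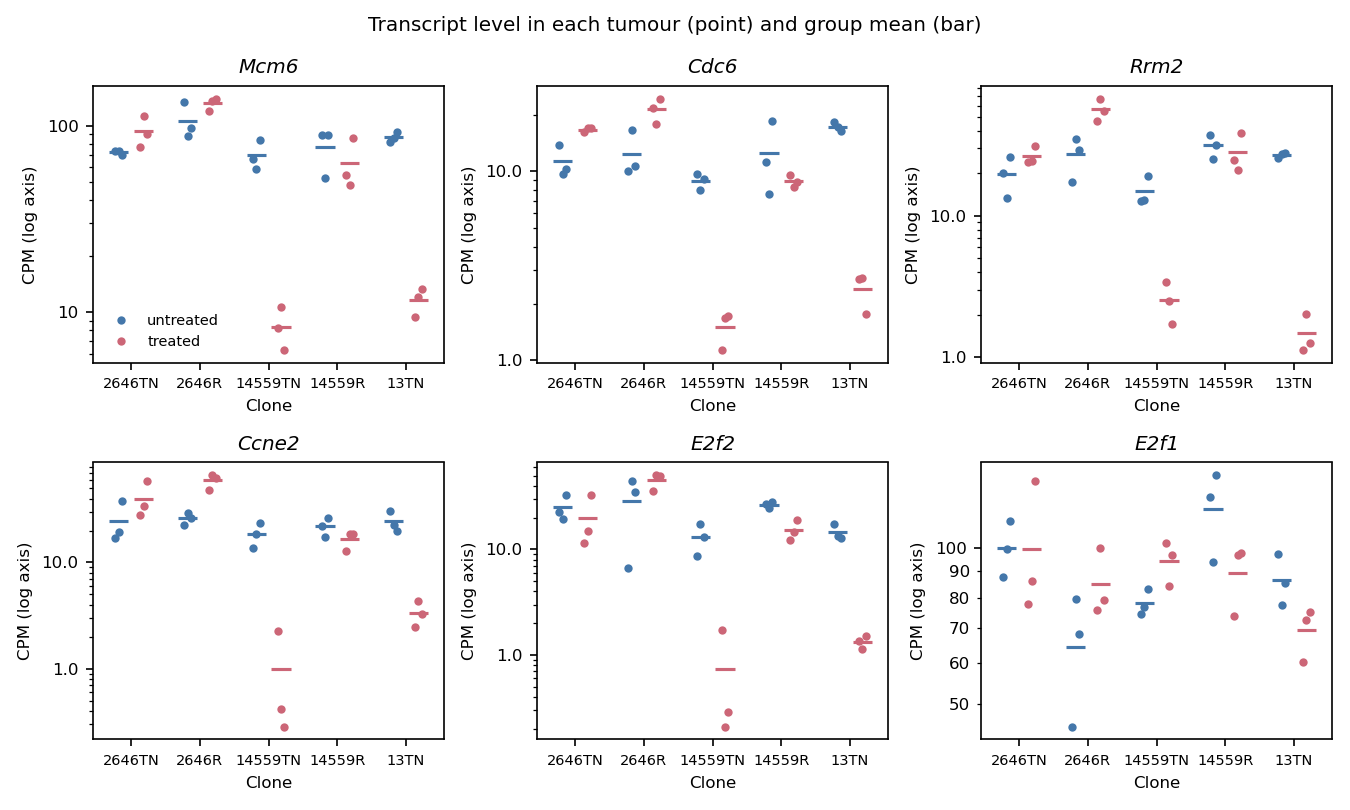
CPM on a log axis in each tumour (points, 3 per group) and the group mean (bars) for Mcm6, Cdc6, Rrm2, Ccne2, E2f2 and E2f1 in the 5 clones, untreated and treated. Treated 14559TN and 13TN tumours lie below all others for the first 5 genes, whereas E2f1 stays between 45.2 and 138 CPM in every tumour.

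At the fork the clamp and the polymerases were measured. Pcna, the sliding clamp, stood at 31.2, 34.4 and 33.5 CPM untreated and 17.6, 12.1 and 12.3 CPM treated in 14559TN, and at 49.9, 39.2 and 40.6 CPM untreated and 15.6, 18.6 and 15.4 CPM treated in 13TN. In both clones the 3 treated tumours were the low ones for Pcna, at log2 fold changes of -1.24 ± 0.22 and -1.39 ± 0.21 (edgeR adjusted p = 4.62e-05 and 4.78e-06). In 2646TN Pcna measured 41.6, 34.0 and 56.4 CPM untreated and 39.8, 34.7 and 58.3 CPM treated, and in 2646R 31.0, 39.3 and 30.9 CPM untreated and 49.3, 63.7 and 46.6 CPM treated. Pcna was at 39.1, 33.1 and 43.0 CPM untreated and 36.5, 30.04 and 37.9 CPM treated in 14559R. Pcna groups overlapped in 2646TN and 14559R and lay wholly higher with treatment in 2646R, and 2646R rose by 0.66 ± 0.20 on the log2 scale (edgeR adjusted p = 0.017). The Pcna call in 2646R was lost without treated replicate 2 (edgeR adjusted p = 0.0887) or untreated replicate 1 (edgeR adjusted p = 0.0585). Pola1, the catalytic subunit of the priming polymerase, stood at 48.0, 72.5 and 81.9 CPM untreated and 30.7, 19.8 and 26.6 CPM treated in 14559TN, and at 79.1, 69.7 and 53.2 CPM untreated and 21.4, 16.3 and 23.2 CPM treated in 13TN. Every treated Pola1 value lay below every untreated one in both, with log2 fold changes of -1.40 ± 0.27 and -1.73 ± 0.27 (edgeR adjusted p = 0.000205 and 1.43e-05). Pola1 in 2646TN was at 59.2, 76.1 and 98.0 CPM untreated and 87.8, 69.8 and 157 CPM treated, and in 2646R at 89.8, 93.7 and 73.5 CPM untreated and 137, 178 and 147 CPM treated. Pola1 in 14559R read 66.3, 43.9 and 70.1 CPM untreated and 54.6, 44.7 and 53.3 CPM treated. Pola1 groups overlapped in 2646TN and 14559R and lay wholly higher with treatment in 2646R, and 2646R rose by 0.84 ± 0.24 on the log2 scale (edgeR adjusted p = 0.0144). Without treated replicate 2 or untreated replicate 3 the Pola1 call in 2646R was lost (edgeR adjusted p = 0.0566 and 0.0503).

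Fen1, the nuclease that trims Okazaki fragments, stood at 11.2, 10.4 and 10.6 CPM untreated and 2.27, 3.76 and 5.14 CPM treated in 14559TN, and at 26.1, 22.1 and 32.9 CPM untreated and 6.31, 4.76 and 9.06 CPM treated in 13TN. Fen1 groups were separate in both clones, and the transcript fell by 1.52 ± 0.33 and 2.01 ± 0.28 on the log2 scale (edgeR adjusted p = 0.000627 and 1.42e-06). Its levels were 29.5, 26.5 and 22.5 CPM untreated and 22.9, 34.7 and 18.4 CPM treated in 2646TN, and 49.7, 45.0 and 42.9 CPM untreated and 47.5, 56.2 and 51.6 CPM treated in 2646R. The 14559R tumours gave 25.4, 16.6 and 16.9 CPM untreated and 12.9, 7.81 and 17.7 CPM treated for Fen1. Fen1 groups overlapped in 2646TN, 2646R and 14559R, with none of the 3 called (log2 fold changes -0.05, 0.17 and -0.62). Rpa1, the largest subunit of the single-strand binding complex, stood at 61.7, 61.2 and 89.2 CPM untreated and 34.1, 33.6 and 28.3 CPM treated in 14559TN, and at 78.6, 63.3 and 90.5 CPM untreated and 38.8, 34.9 and 40.3 CPM treated in 13TN. The log2 fold changes of Rpa1 were -1.14 ± 0.17 in 14559TN and -1.02 ± 0.17 in 13TN (edgeR adjusted p = 4.19e-06 and 1.45e-05), with no overlap between treated and untreated tumours. In 2646TN Rpa1 measured 55.2, 66.1 and 65.4 CPM untreated and 65.5, 64.9 and 75.5 CPM treated, and in 2646R 59.5, 70.1 and 70.2 CPM untreated and 85.5, 87.6 and 82.5 CPM treated. For 14559R the Rpa1 values were 60.3, 49.2 and 76.2 CPM untreated and 48.8, 56.4 and 61.9 CPM treated. Rpa1 groups overlapped in 2646TN and 14559R and lay wholly higher with treatment in 2646R, with none of the 3 called (log2 fold changes 0.14, 0.36 and -0.15).

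Of the remaining fork genes, Rfc3, Rfc4, Pola2, Prim1, Prim2, Pole, Pold1, Lig1 and Rpa2 were called lower in both clones, at -2.17 to -0.72 in 14559TN and -3.01 to -0.89 in 13TN on the log2 scale. In 14559TN the calls of Pola2, Pold1 and Rpa2 were lost without any of 3 libraries (edgeR adjusted p from 0.0543 to 0.171), and in 13TN that of Pola2 without treated replicate 1 (edgeR adjusted p = 0.0531). Rfc5, a clamp loader subunit, was called in 13TN (-1.15 ± 0.29, edgeR adjusted p = 0.00294) but not in 14559TN, where it stood at 25.9, 25.8 and 38.1 CPM untreated and 23.9, 15.2 and 23.7 CPM treated (-0.53 ± 0.29, edgeR adjusted p = 0.185) and treated tumours lay below the untreated ones. In 2646R Pcna, Rfc5, Pola1, Lig1 and Rpa2 rose. Rpa2, the middle subunit of the single-strand binding complex, stood at 53.6, 60.1 and 58.5 CPM untreated and 108, 126 and 135 CPM treated there without overlap (1.10 ± 0.21, edgeR adjusted p = 0.000387). The 2646R calls of Rfc5 and Lig1 were lost without untreated replicate 1 (edgeR adjusted p = 0.0761 and 0.0522), and that of Rfc5 also without treated replicate 2 (edgeR adjusted p = 0.0701).

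Nucleotide supply genes were called lower in 14559TN and 13TN in all 5 cases, and 4 of the 5 rose in 2646R. Rrm2, the S-phase subunit of ribonucleotide reductase, stood at 12.7, 12.9 and 19.2 CPM untreated and 3.41, 2.51 and 1.71 CPM treated in 14559TN, and at 25.8, 27.3 and 28.0 CPM untreated and 1.13, 2.04 and 1.26 CPM treated in 13TN. In both clones the 3 treated tumours were the low ones for Rrm2, at log2 fold changes of -2.54 ± 0.35 and -4.16 ± 0.36 (edgeR adjusted p = 1.18e-06 and 9.82e-11). Rrm2 in 2646TN was at 20.2, 13.4 and 26.1 CPM untreated and 24.0, 24.3 and 31.0 CPM treated, and in 2646R at 17.3, 35.0 and 29.2 CPM untreated and 47.1, 67.5 and 55.2 CPM treated. Rrm2 was at 37.4, 25.4 and 31.8 CPM untreated and 24.9, 21.0 and 38.6 CPM treated in 14559R. Rrm2 groups overlapped in 2646TN and 14559R and lay wholly higher with treatment in 2646R, and 2646R rose by 1.06 ± 0.25 on the log2 scale (edgeR adjusted p = 0.00253). Tyms, thymidylate synthase, stood at 27.9, 25.2 and 38.3 CPM untreated and 14.8, 8.98 and 6.28 CPM treated in 14559TN, and at 36.8, 37.7 and 44.0 CPM untreated and 12.4, 8.39 and 14.1 CPM treated in 13TN. Every treated Tyms value lay below every untreated one in both, with log2 fold changes of -1.61 ± 0.26 and -1.76 ± 0.25 (edgeR adjusted p = 1.42e-05 and 1.74e-06). Its levels were 37.5, 28.7 and 32.4 CPM untreated and 37.6, 51.0 and 52.2 CPM treated in 2646TN, and 25.1, 34.3 and 30.6 CPM untreated and 53.2, 61.4 and 66.8 CPM treated in 2646R. Tyms in 14559R read 41.1, 22.7 and 40.3 CPM untreated and 26.5, 20.3 and 24.8 CPM treated. Tyms groups overlapped in 14559R and lay wholly higher with treatment in 2646TN and 2646R, and 2646R rose by 1.01 ± 0.23 on the log2 scale (edgeR adjusted p = 0.00174).

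Dut, the dUTPase that keeps uracil out of DNA, stood at 113, 99.0 and 117 CPM untreated and 44.9, 56.6 and 40.8 CPM treated in 14559TN, and at 110.0, 121 and 149.5 CPM untreated and 44.9, 74.4 and 50.9 CPM treated in 13TN. Dut groups were separate in both clones, and the transcript fell by 1.20 ± 0.18 and 1.16 ± 0.18 on the log2 scale (edgeR adjusted p = 6.87e-06 and 8.22e-06). In 2646TN Dut measured 105, 75.4 and 84.3 CPM untreated and 101, 121 and 92.4 CPM treated, and in 2646R 252, 217 and 249.7 CPM untreated and 190.4, 181 and 185 CPM treated. The 14559R tumours gave 151, 141 and 158 CPM untreated and 112, 139 and 197 CPM treated for Dut. Dut groups overlapped in 2646TN and 14559R and lay wholly lower with treatment in 2646R, with none of the 3 called (log2 fold changes 0.25, -0.37 and -0.01). Rrm1, the large reductase subunit, and Tk1, thymidine kinase, fell by 1.78 and 3.10 in 14559TN and by 2.19 and 3.49 in 13TN on the log2 scale. In 2646R they rose by 0.72 ± 0.16 and 1.08 ± 0.29 (edgeR adjusted p = 0.00165 and 0.0112), and the Tk1 call was lost without untreated replicate 1 (edgeR adjusted p = 0.0663).

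Among the regulators of S-phase entry, E2f2 and both E cyclins fell in 14559TN and 13TN. E2f2, an activating E2F factor, stood at 8.63, 17.5 and 13.1 CPM untreated and 1.70, 0.209 and 0.286 CPM treated in 14559TN, and at 17.3, 13.4 and 12.9 CPM untreated and 1.35, 1.13 and 1.51 CPM treated in 13TN. The log2 fold changes of E2f2 were -4.19 ± 0.73 in 14559TN and -3.43 ± 0.63 in 13TN (edgeR adjusted p = 0.000104 and 0.00016), with no overlap between treated and untreated tumours. E2f2 in 2646TN was at 22.7, 19.6 and 33.0 CPM untreated and 11.6, 14.9 and 33.1 CPM treated, and in 2646R at 6.68, 44.7 and 35.2 CPM untreated and 35.6, 50.8 and 49.8 CPM treated. For 14559R the E2f2 values were 26.9, 24.7 and 28.3 CPM untreated and 12.2, 14.7 and 18.9 CPM treated. E2f2 groups overlapped in 2646TN and 2646R and lay wholly lower with treatment in 14559R, with none of the 3 called (log2 fold changes -0.33, 0.66 and -0.80). The low E2f2 value of 2646R untreated replicate 1 stands apart from the other 2 untreated tumours. Ccne2, a cyclin of CDK2, stood at 13.7, 18.7 and 23.7 CPM untreated and 2.27, 0.418 and 0.286 CPM treated in 14559TN, and at 30.7, 22.6 and 19.998 CPM untreated and 2.48, 4.31 and 3.27 CPM treated in 13TN. In both clones the 3 treated tumours were the low ones for Ccne2, at log2 fold changes of -4.27 ± 0.48 and -2.86 ± 0.37 (edgeR adjusted p = 5.01e-08 and 6.08e-07). Its levels were 17.1, 19.3 and 38.0 CPM untreated and 28.0, 33.8 and 58.0 CPM treated in 2646TN, and 22.6, 29.1 and 26.5 CPM untreated and 48.0, 66.5 and 63.0 CPM treated in 2646R. Ccne2 was at 22.2, 17.3 and 26.4 CPM untreated and 12.7, 18.6 and 18.4 CPM treated in 14559R. Ccne2 groups overlapped in 2646TN and 14559R and lay wholly higher with treatment in 2646R, and 2646R rose by 1.18 ± 0.29 on the log2 scale (edgeR adjusted p = 0.00444).

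Ccne1, the other E cyclin, stood at 5.58, 7.38 and 10.3 CPM untreated and 3.41, 3.34 and 3.71 CPM treated in 14559TN, and at 10.5, 10.2 and 11.4 CPM untreated and 3.61, 2.27 and 4.28 CPM treated in 13TN. Every treated Ccne1 value lay below every untreated one in both, with log2 fold changes of -1.15 ± 0.32 and -1.65 ± 0.31 (edgeR adjusted p = 0.00703 and 0.000118). In 2646TN Ccne1 measured 9.32, 5.61 and 8.09 CPM untreated and 7.06, 10.1 and 9.84 CPM treated, and in 2646R 14.5, 13.5 and 15.02 CPM untreated and 12.8, 19.4 and 21.8 CPM treated. Ccne1 in 14559R read 15.5, 10.2 and 15.4 CPM untreated and 9.75, 10.5 and 7.58 CPM treated. Ccne1 groups overlapped in 2646TN, 2646R and 14559R, with none of the 3 called (log2 fold changes 0.22, 0.32 and -0.56). The Ccne1 call in 14559TN was lost without untreated replicate 3 (edgeR adjusted p = 0.0841). E2f1, the founding E2F factor, stood at 74.6, 76.8 and 83.2 CPM untreated and 102, 84.2 and 96.8 CPM treated in 14559TN, and at 97.1, 77.4 and 85.5 CPM untreated and 60.2, 72.6 and 75.0 CPM treated in 13TN. The treated 14559TN tumours lay above the untreated ones and the treated 13TN tumours below them, and neither difference was called (log2 fold changes 0.27 ± 0.19 and -0.32 ± 0.19, edgeR adjusted p = 0.308 and 0.202). E2f1 in 2646TN was at 87.7, 99.4 and 112 CPM untreated and 77.9, 86.3 and 134 CPM treated, and in 2646R at 45.2, 79.5 and 68.0 CPM untreated and 75.8, 100.03 and 79.2 CPM treated. The 14559R tumours gave 125, 93.6 and 138 CPM untreated and 73.9, 96.9 and 97.7 CPM treated for E2f1. E2f1 groups overlapped in 2646TN, 2646R and 14559R, with none of the 3 called (log2 fold changes -0.002, 0.41 and -0.41).

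Replicated chromatin genes fell in 14559TN and 13TN in all 3 cases. Uhrf1, which binds hemimethylated DNA behind the fork, stood at 20.6, 21.8 and 28.5 CPM untreated and 3.41, 1.67 and 1.14 CPM treated in 14559TN, and at 34.6, 21.8 and 29.8 CPM untreated and 4.51, 4.99 and 3.78 CPM treated in 13TN. The log2 fold changes of Uhrf1 were -3.51 ± 0.32 in 14559TN and -2.69 ± 0.27 in 13TN (edgeR adjusted p = 4.61e-10 and 2.78e-09), with no overlap between treated and untreated tumours. Its levels were 40.6, 41.1 and 36.4 CPM untreated and 46.9, 45.1 and 40.9 CPM treated in 2646TN, and 41.2, 41.9 and 47.8 CPM untreated and 69.0, 72.4 and 79.2 CPM treated in 2646R. For 14559R the Uhrf1 values were 58.1, 27.0 and 39.8 CPM untreated and 29.5, 24.2 and 37.9 CPM treated. Uhrf1 groups overlapped in 2646TN and 14559R and lay wholly higher with treatment in 2646R, and 2646R rose by 0.75 ± 0.21 on the log2 scale (edgeR adjusted p = 0.0109). Chaf1b, a subunit of the CAF-1 histone chaperone, stood at 10.9, 10.8 and 11.1 CPM untreated and 1.14, 2.72 and 0.857 CPM treated in 14559TN, and at 9.74, 7.44 and 7.69 CPM untreated and 0.451, 1.81 and 1.76 CPM treated in 13TN. In both clones the 3 treated tumours were the low ones for Chaf1b, at log2 fold changes of -2.70 ± 0.43 and -2.61 ± 0.45 (edgeR adjusted p = 1.39e-05 and 3.58e-05). In 2646TN Chaf1b measured 7.31, 9.35 and 8.99 CPM untreated and 9.88, 10.4 and 18.7 CPM treated, and in 2646R 14.7, 16.1 and 11.7 CPM untreated and 16.9, 19.7 and 14.9 CPM treated. Chaf1b was at 11.5, 4.85 and 15.1 CPM untreated and 10.9, 6.10 and 7.32 CPM treated in 14559R. Chaf1b groups overlapped in 2646R and 14559R and lay wholly higher with treatment in 2646TN, with none of the 3 called (log2 fold changes 0.61, 0.27 and -0.36). Chaf1a, the large CAF-1 subunit, stood at -1.72 ± 0.32 in 14559TN and -1.89 ± 0.31 in 13TN on the log2 scale (edgeR adjusted p = 0.000151 and 2.85e-05).

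Set against the promoter letters, the 13 members with E2F letters had a median log2 fold change of -2.48 in 14559TN and the 21 with a window but without them -1.61. In 13TN the medians were -2.69 and -1.89, and in 2646R 0.75 and 0.52. The ranges overlapped in each clone, and no test was made between these members. Some windows lay in annotated exons, as given above, and the part of this in the medians was not tested. Mcm6, Mcm5 and Pola1, whose promoters are shown above, fell by 3.03, 2.85 and 1.40 in 14559TN on the log2 scale, and Chaf1b, without the letters, fell by 2.70.

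The clones of a pair were then compared under the same treatment. Under RAFi/MEKi, 14559R had higher levels than 14559TN of 39 of the 41 genes and lower levels of none (background 26.6% higher, 22.7% lower), with a median log2 difference of 1.68 against 0.02 over all genes. E2f2 stood at 12.2, 14.7 and 18.9 CPM in 14559R and 1.70, 0.209 and 0.286 CPM in 14559TN among treated tumours, Ccne2 at 12.7, 18.6 and 18.4 CPM in 14559R and 2.27, 0.418 and 0.286 CPM in 14559TN, and Gmnn at 11.6, 5.86 and 16.2 CPM in 14559R and 0.852, 0.418 and 0.857 CPM in 14559TN. The 14559R tumours were all higher for each of these 3 genes, with log2 differences of 4.42 ± 0.71 (edgeR adjusted p = 1.7e-05), 4.09 ± 0.48 (edgeR adjusted p = 4.13e-08) and 3.98 ± 0.47 (edgeR adjusted p = 2.5e-08). Orc6 (0.55 ± 0.30, edgeR adjusted p = 0.128) and E2f1 (-0.07 ± 0.19, edgeR adjusted p = 0.768) were the members not called. The E2f1 groups overlapped, and its sign turned without 14559R treated replicate 1. This comparison shares its treated 14559TN tumours with the response of 14559TN. Some markers listed for other cells were called here too, beside the shares of 26.6% higher and 22.7% lower over all genes. Of the tested macrophage markers 3 of 10 were lower in 14559R, at sums of 18.9 to 40.4 CPM against 70.0 to 133 CPM without overlap. Of fibroblast markers 3 of 7 were higher, of erythroid markers 2 of 4 were higher, of endothelial markers 1 of 5 was higher and 2 lower, and of pericyte markers 1 of 4 was higher and 2 lower. Their part in the replication result was not tested.

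Without treatment 10 members were higher in 14559R than in 14559TN and none lower (background 12.9% higher, 11.2% lower), at a median log2 difference of 0.45 against 0.0034. They were Cdt1, Mcm2, Cdc45, Rfc5, Fen1, Rpa2, Rrm2, E2f1, Ccne1 and Uhrf1. Rrm2 stood at 37.4, 25.4 and 31.8 CPM in 14559R and 12.7, 12.9 and 19.2 CPM in 14559TN untreated, a log2 difference of 1.07 ± 0.27 (edgeR adjusted p = 0.00328). Cdc45 stood at 20.7, 16.9 and 21.3 CPM in 14559R and 10.4, 7.38 and 10.6 CPM in 14559TN, a log2 difference of 1.04 ± 0.27 (edgeR adjusted p = 0.00527). Both genes were higher in every 14559R tumour, and both calls held in each fit that left out 1 library. Fen1, at 25.4, 16.6 and 16.9 CPM in 14559R and 11.2, 10.4 and 10.6 CPM in 14559TN (0.87 ± 0.27, edgeR adjusted p = 0.0192), lost its call without 14559R untreated replicate 1 or any of the 3 untreated 14559TN tumours (edgeR adjusted p from 0.0517 to 0.145). The count was 3 without 14559R untreated replicate 1, 5 without its replicate 3, 3 without 14559TN untreated replicate 1 and 4 without its replicate 2. Marker calls in this comparison were 1 macrophage, 1 endothelial, 1 fibroblast and 1 pericyte marker lower in 14559R, and 3 fibroblast markers and 1 pericyte marker higher, and their part was not tested.

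The pair of 2646TN and 2646R was compared in the same way. Untreated, 8 members were higher and 1 lower in 2646R than in 2646TN (background 18.3% higher, 18.4% lower), at a median of 0.14 against -0.0046. The share of members called higher was near that of all genes, and the share called lower was below it. The higher ones were Cdt1, Mcm2, Mcm4, Mcm6, Cdc45, Fen1, Dut and Ccne1. Mcm6 lost its call without 2646R untreated replicate 1 or any 2646TN untreated tumour (edgeR adjusted p from 0.0679 to 0.235). Cdc45 lost it without 2646R untreated replicate 2 or any 2646TN untreated tumour (edgeR adjusted p from 0.0567 to 0.261). Ccne1 and Fen1 lost it without 2646TN untreated replicate 2 and 3, respectively (edgeR adjusted p = 0.0855 and 0.0576). Dut stood at 252, 217 and 249.7 CPM in 2646R and 105, 75.4 and 84.3 CPM in 2646TN (1.44 ± 0.18, edgeR adjusted p = 1.88e-07), Mcm4 at 90.1, 75.0 and 65.8 CPM in 2646R and 34.8, 34.3 and 28.1 CPM in 2646TN (1.25 ± 0.24, edgeR adjusted p = 0.000121), and Mcm2 at 153, 136 and 131 CPM in 2646R and 83.1, 58.9 and 69.2 CPM in 2646TN (0.99 ± 0.20, edgeR adjusted p = 0.000194). For all 3 genes every 2646R tumour was higher. E2f1 was the lower one, at 45.2, 79.5 and 68.0 CPM in 2646R and 87.7, 99.4 and 112 CPM in 2646TN without overlap (-0.64 ± 0.19, edgeR adjusted p = 0.0085), and its call was lost without 2646R untreated replicate 1 (edgeR adjusted p = 0.0999) or 2646TN untreated replicate 3 (edgeR adjusted p = 0.0542). The count of higher members was 5 without 2646TN untreated replicate 2 or 3. That of lower members was 2 without 2646R untreated replicate 2 or 3 or without 2646TN untreated replicate 2.

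Under treatment 13 members were higher in 2646R than in 2646TN and none lower (background 10.0% higher, 10.1% lower), with a median of 0.49 against -0.01. They were Cdt1, Mcm2, Mcm4, Mcm7, Cdc45, Rfc3, Pola2, Fen1, Rrm1, Rrm2, Dut, Ccne1 and Uhrf1. Mcm2 stood at 178, 233 and 184 CPM in 2646R and 86.7, 85.0 and 77.7 CPM in 2646TN (1.26 ± 0.20, edgeR adjusted p = 2.21e-05), Rrm2 at 47.1, 67.5 and 55.2 CPM in 2646R and 24.0, 24.3 and 31.0 CPM in 2646TN (1.09 ± 0.25, edgeR adjusted p = 0.00218) and Fen1 at 47.5, 56.2 and 51.6 CPM in 2646R and 22.9, 34.7 and 18.4 CPM in 2646TN (1.04 ± 0.25, edgeR adjusted p = 0.00289). Every 2646R tumour was higher for these 3 genes, and their calls held in each fit that left out 1 library, as did those of Cdt1, Dut and Uhrf1. Leaving out 1 library gave 9 to 16 higher genes, and 7 of the 13 lost their call in at least 1 such fit. They were Rfc3 in 5 of 6 fits, Cdc45 in 4, Mcm7 in 3 and Mcm4, Pola2, Rrm1 and Ccne1 in 1 each (edgeR adjusted p from 0.0549 to 0.177). Macrophage marker sums of this pair were 32.4 to 67.5 CPM in 2646R and 168 to 266 CPM in 2646TN untreated, and 107 to 130.2 and 28.6 to 75.0 CPM treated. Those of pericyte and smooth muscle markers were 312 to 351 CPM in 2646R and 43.1 to 62.3 CPM in 2646TN untreated, and 749.9 to 1014 and 242 to 720.0 CPM treated. Neither pair of sums overlapped in either state. Endothelial, neutrophil, keratinocyte and erythroid sums did not overlap untreated, and fibroblast sums did not overlap treated. Endothelial sums were 9.23 to 17.3 CPM in 2646R and 46.5 to 53.7 CPM in 2646TN untreated. Fibroblast sums were 14371 to 16113 CPM in 2646R and 5442 to 12609.7 CPM in 2646TN treated. The part of all these markers in these differences was not tested.

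**Figure D5:**
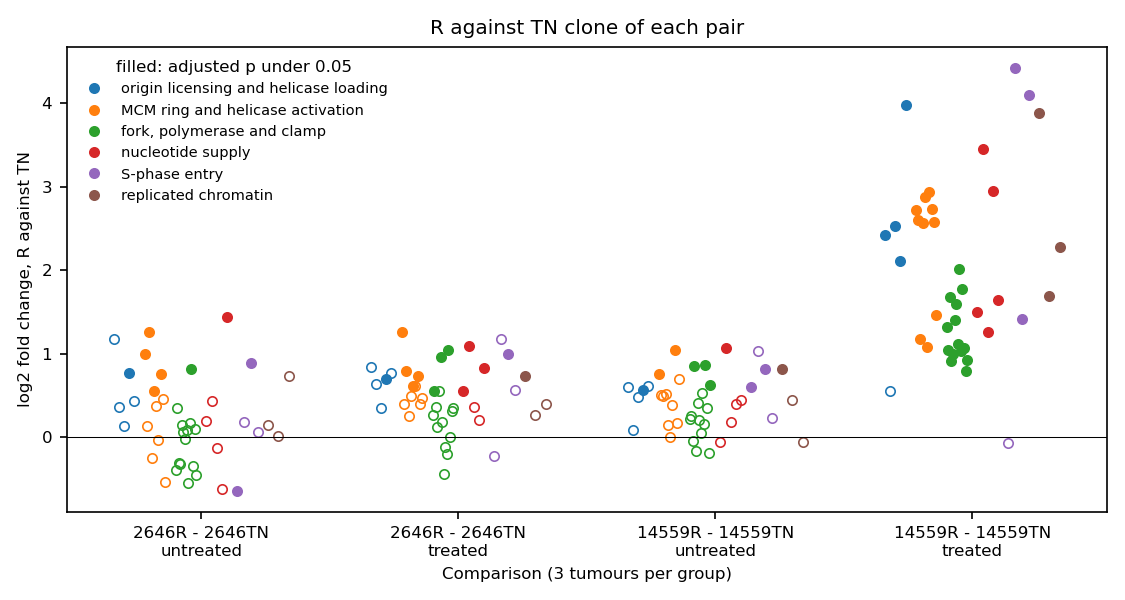
Log2 difference of R against TN for each of the 41 genes, coloured by role, in both pairs untreated and treated (3 tumours per group), filled where the edgeR adjusted p was under 0.05. Treated 14559R lies above treated 14559TN for 39 filled genes, whereas the other 3 comparisons hold 9, 13 and 10 filled genes.

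Whether treatment acted differently on these genes in 2 clones was tested as a difference between responses, in the same fit. The response of 14559R was higher than that of 14559TN for 27 of the 41 genes and lower for none (background 7.93% higher, 4.08% lower), at a median of 1.38 against 0.03. Ccne2 (3.86 ± 0.59, edgeR adjusted p = 3.97e-05), E2f2 (3.38 ± 0.90, edgeR adjusted p = 0.0136) and Gmnn (3.37 ± 0.58, edgeR adjusted p = 0.000139) differed most. Without 14559TN treated replicate 2 or 3 the E2f2 call was lost (edgeR adjusted p = 0.0682 and 0.0571). Leaving out 1 library gave 19 to 27 higher genes.

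Between the TN clones, 14559TN responded lower than 2646TN for 37 genes and higher for none (background 8.87% lower, 5.19% higher), at a median of -1.99 against 0.01. The differences were largest for Ccne2 (-4.95 ± 0.58, edgeR adjusted p = 3.11e-07), Orc1 (-3.94 ± 1.11, edgeR adjusted p = 0.015) and Gmnn (-3.87 ± 0.58, edgeR adjusted p = 1.58e-05). Orc1 lost its call without 14559TN untreated replicate 1 (edgeR adjusted p = 0.0611). Orc6 (-0.48 ± 0.42, edgeR adjusted p = 0.496), Rfc5 (-1.05 ± 0.40, edgeR adjusted p = 0.0794), Pola2 (-0.66 ± 0.43, edgeR adjusted p = 0.349) and E2f1 (0.27 ± 0.27, edgeR adjusted p = 0.561) were not called. Rfc5 passed without 2646TN untreated replicate 3 (edgeR adjusted p = 0.0359) and without the low-count filter (edgeR adjusted p = 0.00752). Between 14559TN and 13TN edgeR called a difference for no member (background 0.263% higher, 0.181% lower), at a median of 0.37, and 8 passed an unadjusted p under 0.05 where 8.86% of all genes did. DESeq2 also called 0 of them.

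The R clones differed from each other too. The response of 2646R was higher than that of 14559R for 16 genes and lower for none (background 3.61% higher, 4.78% lower), at a median of 0.91 against -0.0026. Gins2 (2.13 ± 0.37, edgeR adjusted p = 0.000423), Mcm5 (1.86 ± 0.41, edgeR adjusted p = 0.00473) and Tk1 (1.62 ± 0.42, edgeR adjusted p = 0.0158) led. Gins2 stood at 38.4, 34.0 and 32.0 CPM untreated and 18.4, 17.8 and 16.9 CPM treated in 14559R, Mcm5 at 57.6, 38.4 and 63.8 CPM untreated and 22.2, 34.2 and 35.1 CPM treated and Tk1 at 94.0, 56.6 and 81.1 CPM untreated and 43.5, 54.5 and 60.6 CPM treated. In 2646R, Mcm5 stood at 50.9, 58.9 and 46.4 CPM untreated and 115, 98.9 and 112 CPM treated and Tk1 at 40.5, 89.0 and 58.7 CPM untreated and 107, 156 and 132 CPM treated. Treated tumours of 2646R were above its untreated ones for all 3 genes, and those of 14559R were below its untreated ones for Gins2 and Mcm5. Tk1 in 14559R overlapped. All 3 calls held in each fit that left out 1 library, and the count then ran from 11 to 22, with 12 without 2646R untreated replicate 1. For 2646R against 2646TN no member's response differed (background 2.36% higher, 1.78% lower), at a median of 0.28. There 5 passed an unadjusted p under 0.05 where 18.3% of all genes did, DESeq2 called 0, 1 was called without 2646R untreated replicate 3, and 2 were called without 2646TN treated replicate 3, the treated tumour with the high summed level. These differences share tumours with each other and with the responses above.

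The TN clones were also compared before treatment. Untreated 14559TN had 5 members lower and none higher than untreated 13TN (background 5.55% lower, 5.63% higher), at a median of -0.36 against -0.01. They were Cdc6, Cdt1, Mcm10, Fen1 and Rrm2. Fen1 stood at 11.2, 10.4 and 10.6 CPM in 14559TN and 26.1, 22.1 and 32.9 CPM in 13TN without overlap (-1.32 ± 0.27, edgeR adjusted p = 0.000989), and its call held without any single library. Cdc6 stood at 9.64, 7.99 and 9.08 CPM in 14559TN and 18.3, 17.1 and 16.3 CPM in 13TN (-0.95 ± 0.27, edgeR adjusted p = 0.0196) and Rrm2 at 12.7, 12.9 and 19.2 CPM in 14559TN and 25.8, 27.3 and 28.0 CPM in 13TN (-0.85 ± 0.27, edgeR adjusted p = 0.0354). Each of these 2 genes was lower in every 14559TN tumour, and each lost its call without any of 5 of the 6 libraries (edgeR adjusted p from 0.0508 to 0.0871 for Cdc6 and from 0.0732 to 0.154 for Rrm2). The count was 2 without 13TN untreated replicate 1 or 14559TN untreated replicate 1, and 3 without 13TN untreated replicate 2 or 14559TN untreated replicate 2.

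Untreated 2646TN had 8 members higher and none lower than untreated 14559TN (background 10.1% higher, 8.76% lower), at a median of 0.35 against 0.01. These were Mcm3, Mcm10, Rfc5, Pola2, Fen1, Lig1, Rpa2 and Uhrf1. Fen1 stood at 29.5, 26.5 and 22.5 CPM in 2646TN beside the 14559TN values above (1.28 ± 0.27, edgeR adjusted p = 0.000773), Pola2 at 26.2, 16.8 and 14.2 CPM in 2646TN and 8.88, 8.30 and 13.1 CPM in 14559TN (0.91 ± 0.29, edgeR adjusted p = 0.0264), and Rfc5 at 44.3, 46.8 and 71.7 CPM in 2646TN and 25.9, 25.8 and 38.1 CPM in 14559TN (0.86 ± 0.28, edgeR adjusted p = 0.0295). All 3 were higher in every 2646TN tumour. Pola2 and Rfc5 each lost the call without any of 3 libraries (edgeR adjusted p from 0.114 to 0.242 and from 0.113 to 0.232), whereas Fen1 kept it in each such fit. The count was 1 without 14559TN untreated replicate 1, 3 without its replicate 2, 4 without 2646TN untreated replicate 1 and 3 without its replicate 3. With only these 2 groups in the fit it was 15. Against 13TN, untreated 2646TN had 1 member lower, Dut, and none higher (background 7.58% lower, 8.63% higher), at a median of 0.03. Dut stood at 105, 75.4 and 84.3 CPM in 2646TN and 110.0, 121 and 149.5 CPM in 13TN (-0.52 ± 0.18, edgeR adjusted p = 0.0417), and the call was lost without 13TN untreated replicate 2 or 3 or 2646TN untreated replicate 2 or 3 (edgeR adjusted p from 0.0714 to 0.211). Without 13TN untreated replicate 1, 2 members were called higher. Macrophage marker sums in untreated tumours were 168 to 266 CPM in 2646TN, 21.3 to 83.2 CPM in 14559TN and 42.2 to 70.4 CPM in 13TN. Of the lists for other cells, only the lymphocyte sums overlapped between untreated 2646TN and 14559TN. Pericyte and smooth muscle sums were 43.1 to 62.3 CPM in 2646TN, 206 to 216 CPM in 14559TN and 162 to 181 CPM in 13TN. Endothelial sums were 46.5 to 53.7, 19.5 to 21.4 and 16.0 to 26.5 CPM in that order. The part of these markers in these differences was not tested.

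Across the 10 group means the members followed a common profile. The mean of their standardised log2 levels was lowest in treated 14559TN (-1.68) and treated 13TN (-1.68). It was -0.02 in untreated 14559TN, 0.04 in treated 14559R, 0.34 in untreated 2646TN, 0.37 in untreated 13TN, 0.41 in untreated 14559R, 0.48 in untreated 2646R and 0.62 in treated 2646TN. Treated 2646R was highest (1.13). Pearson's r with this profile, a description over 10 group means that share the same scaling and tumours, was highest among members for Mcm3 (0.996), Chaf1a (0.993), Mcm10 (0.992), Mcm5 (0.990) and Rrm1 (0.989). Each member is part of the profile it is set against. It was lowest for E2f1 (0.192), whose group means spanned 0.90 on the log2 scale, whereas Ccne2 spanned 5.55 and E2f2 5.41. Dut (0.845) and Orc6 (0.854) came next from the bottom.

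Outside the list, the 10 tested genes whose group means came closest to the profile were Racgap1, Birc5, Tacc3, Shcbp1, Dtl, Cenph, Hist1h2an, Lsm2, Trip13 and Rad51ap1, with r from 0.988 to 0.995. Racgap1 encodes a cytokinesis regulator, Birc5 survivin, Tacc3 a spindle protein and Cenph a kinetochore protein. Dtl encodes the substrate receptor that directs destruction of Cdt1 in S phase, Hist1h2an a histone H2A and Rad51ap1 a recombination protein. Their group means spanned 1.94 (Lsm2) to 4.80 (Rad51ap1) on the log2 scale.

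Other genes of the same processes, 65 in 5 lists, were counted by the same rule, beside the shares of all tested genes. In 14559TN 35 of 65 fell and 4 rose (16.0% and 12.4% of all genes), and in 13TN 42 fell and 2 rose (17.4% and 13.6%), at medians of -0.78 and -0.86. In 2646R 14 rose and 2 fell (9.70% and 10.2%), in 2646TN 3 rose and 1 fell (1.69% and 2.24%), and in 14559R none was called (0.143% and 0.0527%). The same shares stand behind the counts of the single lists. Of 15 other origin and helicase genes 5 fell in 14559TN and 7 in 13TN. Orc2, Orc3, Orc4 and Orc5, the remaining subunits of the complex, were called in neither, at -0.27 to 0.36 on the log2 scale. Of 18 other fork genes 8 fell in 14559TN and 11 in 13TN, and of 7 other chromatin genes 6 fell in each. The fork gene Pclaf, a PCNA-binding factor, fell by 3.39 ± 0.32 and 4.12 ± 0.32 in these clones on the log2 scale, and rose by 1.14 ± 0.25 in 2646R (edgeR adjusted p = 1.29e-08, 2.6e-10 and 0.00186). These and the following examples were chosen after their values were seen.

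Of 10 other nucleotide genes 6 fell in each of 14559TN and 13TN. Samhd1, which encodes an enzyme that degrades deoxynucleotides, rose in 2646TN (1.00 ± 0.23), 2646R (0.94 ± 0.24), 14559TN (1.82 ± 0.23) and 13TN (1.77 ± 0.23), with edgeR adjusted p values of 0.01, 0.00617, 1.15e-06 and 1.25e-06. Of 15 cycle control genes 10 fell and 2 rose in 14559TN, and 12 fell and 1 rose in 13TN. Ccnd1, cyclin D1, fell by 1.85 ± 0.19 and 2.14 ± 0.19 there on the log2 scale (edgeR adjusted p = 7.82e-09 and 2.62e-10) and was not called in 2646TN (0.20 ± 0.18), 2646R (-0.13 ± 0.18) or 14559R (-0.28 ± 0.18). The repressor factors E2f7 and E2f8 fell by 3.01 ± 0.36 and 2.97 ± 0.38 in 14559TN, and Cdkn1b, the p27 inhibitor, rose by 0.55 ± 0.15 (edgeR adjusted p = 9.25e-08, 6.08e-07 and 0.00528). Cdkn1a, which encodes the CDK inhibitor p21, fell in 2646TN, 2646R, 14559TN and 13TN, by 1.30 ± 0.33, 2.18 ± 0.32, 2.25 ± 0.33 and 3.07 ± 0.34 on the log2 scale (edgeR adjusted p = 0.0287, 4.41e-05, 2.16e-05 and 3.85e-07).

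Genes of mitosis, the phase after replication, were kept as a separate list of 15. All 15 fell in 14559TN and in 13TN, where 16.0% and 17.4% of all genes did, at medians of -3.11 and -4.15, and 10 of 15 rose in 2646R (9.70% of all genes) at a median of 0.93. None was called in 2646TN or 14559R. The difference between the mitotic and the replication genes was not tested.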

How the data were processed

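Messenger RNA 3′ ends were sequenced from 30 tumours with the Lexogen QuantSeq kit, per the labels' protocols. Per the submitters' processing notes, reads were aligned with STAR 2.6.0c to GRCm38 and assigned to genes with featureCounts 1.6.2, and per the file headers counting was stranded, which separates members from genes that overlap them on the opposite strand. The deposited values are raw counts of reads per gene, and all were whole numbers.

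Counts were tested in R 4.3.3 with edgeR 4.0.16: filterByExpr by group (minimum count 10), TMM factors, and 1 robust quasi-likelihood fit of the 10 groups with 20 residual degrees of freedom. Each comparison was a contrast of that fit, with p adjusted by Benjamini-Hochberg over the 13286 tested genes and a threshold of 0.05, and the script was tested on simulated data. A standard error was derived from the F statistic, as |log2 fold change| divided by its square root. Log2 levels for the profile used a prior count of 2. Error terms come from the 3 tumours of each group, each with its own code, and do not cover variation among clones. The labels do not say whether 2 tumours shared a mouse.

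The members and lists were chosen with earlier results of these data known. Values in every tumour are given for 20 members fixed by name and, in each comparison, for up to 3 called members with the largest change, and every uncalled member is named where 30 or more were called. Promoter sequences are RefSeq's on GRCm38.p6. Alternatives were RLE size factors, DESeq2 1.42.0, no low-count filter, only the groups compared, and leaving out each library.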

Additional observations from a re-analysis of the deposited data

Results flagged for a closer look

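In 3 pairs of clones the response to RAFi/MEKi differed by a test of the difference itself (edgeR, contrasts of the same fit). Between 14559R and 14559TN 27 of the 41 genes differed, all with the higher response in 14559R, led by Ccne2 (3.86 on the log2 scale), E2f2 (3.38) and Gmnn (3.37). Between 14559TN and 2646TN 37 differed, all with the lower response in 14559TN, led by Ccne2 (-4.95), Orc1 (-3.94) and Gmnn (-3.87). Between 2646R and 14559R 16 differed, all with the higher response in 2646R, led by Gins2 (2.13), Mcm5 (1.86) and Tk1 (1.62). These 3 tests share tumours. With 3 tumours per group, no group was tested for a single outlying tumour. The library of 2646R untreated replicate 1 had the fewest genes detected of the 30 libraries (14669).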

How the results depend on the processing

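No paired analysis was possible because each tumour has a code of its own and the replicate numbers serve as names. The calls in 14559TN (38 lower) ran from 34 to 38 and those in 13TN (39 lower) from 38 to 39 over all alternatives. With RLE factors the median shift of the 41 members' log2 fold changes was at most 0.05 in size in any comparison. Of 8197 values of the 41 members over 17 comparisons, 7601 kept their direction and side of the threshold, 262 lost a call, 128 gained one and 206 turned sign, and none of the 206 was called before or after. Where 30 or more members were called, 2 values turned sign. They were Orc6 in the response of 14559TN, at -0.51 to 0.17 over the fits that left out 1 library, the last without 14559TN untreated replicate 3 (edgeR adjusted p = 0.765), and E2f1 in treated 14559R against 14559TN, at -0.17 to 0.0008, the last without 14559R treated replicate 1 (edgeR adjusted p = 1). Neither was called in any fit.

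Without the low-count filter, 2 members were called higher in 2646TN, 2 lower in 14559R, 3 lower in untreated 2646R against 2646TN, 2 higher in untreated 2646TN against 13TN, 3 lower in untreated 14559TN against 13TN, 2 higher in the difference of 2646R and 2646TN responses and 1 higher in that of 14559TN and 13TN. With only the groups compared, the counts were 2 lower in untreated 2646R against 2646TN, 2 higher in untreated 2646TN against 13TN, 15 higher in untreated 2646TN against 14559TN, 1 lower in the difference of 14559R and 14559TN responses and 1 higher in that of 14559TN and 13TN. DESeq2 called 1 lower in 14559R.

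Leaving out 1 library gave 0 to 1 higher in 2646TN and 11 to 20 higher in 2646R. In untreated 2646R against 2646TN it gave 5 to 8 higher and 0 to 2 lower, and in untreated 14559R against 14559TN 3 to 11 higher. In untreated 2646TN against 13TN it gave 0 to 2 higher and 0 to 1 lower, in untreated 14559TN against 13TN 2 to 4 lower, and in untreated 2646TN against 14559TN 1 to 6 higher. In the response differences it gave 0 to 2 higher for 2646R and 2646TN and 0 to 1 lower for 14559R and 14559TN. Fewer samples enter these fits, and the cause of single changes was not tested. Depth limits Orc1 most, with 352 counts over 30 libraries.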
